A study of Mus musculus with 24 samples.

Results

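The change in the effect of losing Abcb4 on mouse liver RNA was followed over the 3 weeks between 2 times, with the arrays titled 6 weeks set against the arrays titled 3 weeks. These were 12 of the 24 arrays of the study, 6 at each of the 2 times, chosen by their titles alone. The knockouts were male FVB.129P2-Abcb4tm1Bor/J mice, without functional Abcb4, and the controls were FVB/NJ mice with both copies. They differ in strain name as well as in the targeted gene, and the knockout applies to the whole animal. Every array held liver total RNA of knockout mice in one dye and of wild type mice in the other, so each value is a ratio of knockout over wild type. At each week 3 arrays had wild type RNA in Cy5 and 3 had it in Cy3. The study states 5 mice per genotype and week and a dye swap among the 6 arrays, without saying which arrays repeat mice. The arrays behind a p-value thus outnumber the mice, and part of the spread may be technical. The weeks are counted after weaning in the descriptions and are the time of death in the design text. Source names put 3 weeks on all arrays, so the titles decided the week.

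Abcb4 is the transporter of the hepatocyte's canalicular membrane that passes phosphatidylcholine into bile, where it forms mixed micelles with bile salts. Without it bile salts are not buffered, bile ducts and neighbouring hepatocytes are injured, and inflammation and periductal fibrosis follow; the knockout mouse is used as a model of sclerosing bile duct disease. Between weaning and young adulthood the mouse liver also moves away from its suckling metabolism, in which fat is the main fuel, and takes on its sex-specific enzyme pattern.

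Values below are log2 ratios, knockout divided by wild type, centred on each array's median, and a difference is the 6-week mean minus the 3-week mean. Log base 2 is an assumption. The sign rests on a further assumption, a lower Abcb4 signal in the knockout, and with the opposite sign every higher and lower below would be exchanged. A ratio does not tell whether knockout or wild type liver moved between the weeks, and it holds no levels, so the tissue could not be checked against its defining genes. Tests are limma's moderated tests, two-sided, with Benjamini-Hochberg adjustment over 20861 items, of which 16504 were named genes. An adjusted p below 0.05 is called past the threshold.

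Some arrays stood apart from the others of their week. The cholesterol synthesis genes had list medians of -1.52 and -1.39 on 3-week arrays 1 and 2, against -0.16 to 0.21 on the other 3-week arrays and -0.35 to 0.23 on the 6-week arrays. On 3-week array 6, 18 of 19 exocrine pancreas genes other than amylases lay below -1, with a median of -3.76, and on the other 11 arrays at most 1 of the 19 did. Arrays of opposite dye orientation correlated at r = -0.05 to 0.65 within 3 weeks, and at r = 0.22 to 0.53 within 6 weeks. Of the genes named by rule and described below, Ech1, Acaa1a, Cpt2, Cyp26a1, Cyp2c40, Gstt2, Fabp2, Cyp7a1, Slc10a2, Abcd2, Orm2, H19, Lum, Lyz2, Ccl7 and Car14 were no longer past the threshold of the difference when 3-week arrays 1 and 2 were both left out (adjusted p = 0.0504 to 0.114).

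The knockout effect differed between 6 and 3 weeks for 271 items (1.30% of all tested), of which 145 were higher at 6 weeks (0.695%) and 126 lower (0.604%). Named genes made up 238 of them, 128 higher and 110 lower. The sizes ran between 0.18 and 4.03 in absolute value with a median of 0.62, 64 items differed by 1 or more, and the largest belonged to an unnamed feature. Over all items the median difference was 0.004, with quartiles of -0.072 and 0.082, and the median standard error was 0.085. In 163 of the 271 no 6-week array overlapped any 3-week array, as held for 325 of all items (1.56%). Averaging the most similar pair of opposite dye orientation in each week, as if it were the dye swap, left 103 items past the threshold, and leaving out 3-week arrays 1 and 2 gave 439, of which 189 were among the 271. Without 6-week array 4 there were 179 and without 6-week array 5 there were 165. With only the 12 arrays of 3 and 6 weeks fitted there were 243, of which 170 were among the 271.

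Most genes that passed at one week and not at the other did not pass the test of the difference. Set against 0, 4362 items were past the threshold at 6 weeks (20.9%) and 1542 at 3 weeks (7.39%). Of the 3439 that passed at 6 weeks only, 169 (4.9%) also differed from 3 weeks, and of the 619 that passed at 3 weeks only, 71 (11.5%) differed. Both weeks were passed in the same direction by 916 items, which is 21.0% of the 6-week calls and 59.4% of the 3-week calls. The remaining 31 of the 271 passed at both weeks, 16 with a larger effect at 6 weeks, 8 with a smaller one and 7 in opposite directions.

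**Figure D1:**
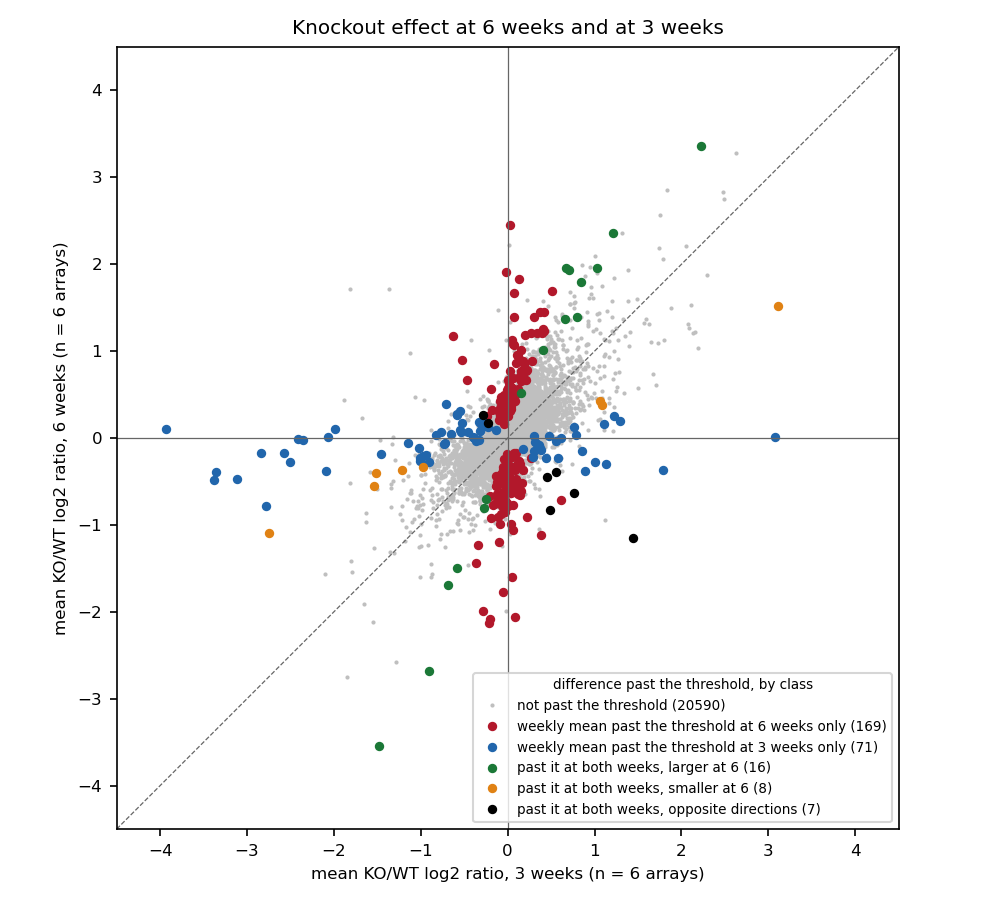
Mean log2 ratio of knockout over wild type at 6 weeks (vertical axis) against that at 3 weeks (horizontal axis) for all 20861 items, 6 arrays each; the dashed line marks equal effects. The 271 items whose difference passed are coloured by class, with 169 along the vertical axis (past the threshold at 6 weeks only) and 71 along the horizontal axis (3 weeks only).

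The later arrays give a description of how these classes went on. Of the 82 items that were higher in the knockout at 6 weeks only and passed the difference, 70 were past the threshold and higher at 9 weeks (10.4% of all items) and 57 at 20 weeks (8.09%). Of the 87 that were lower, 60 were lower at 9 weeks (10.9%) and 46 at 20 weeks (5.37%). Of the 25 that were higher at 3 weeks only, 4 were higher at 9 weeks and 2 at 20 weeks, and of the 46 that were lower at 3 weeks only, 2 were lower at 9 weeks and 0 at 20 weeks.

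Abcb4 itself had ratios of -2.22, -1.51 and -1.17 (lowest, median and highest array) at 6 weeks, against -1.24, -0.78 and -0.65 at 3 weeks. The highest 6-week array lay just above the lowest 3-week array, and the difference of -0.70 (SE 0.24) did not pass (adjusted p = 0.172). Whether its probe lies in the deleted part is not known here. None of the 15 measured genes in the list of Abcb4 and its chromosome 5 neighbours passed.

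Several genes of fatty acid oxidation in the hepatocyte had a lower knockout effect at 6 weeks. PPAR alpha is the nuclear receptor that switches on fatty acid uptake, peroxisomal and mitochondrial beta-oxidation and omega-oxidation during fasting and suckling. Of 27 measured PPAR alpha targets, Ppara included, 7 were lower at 6 weeks (25.9%, beside 0.604% of all items) and 0 higher. The list's median difference was -0.46, beside 0.004 for all items, and 23 of its 27 members had a negative difference. Set against 0, 12 members were lower in the knockout at 6 weeks (10.1% of all items) and 4 at 3 weeks (3.75%), and 2 were higher at each week (10.8% and 3.64%). The list median lay between -0.50 and -0.18 on the 6-week arrays, against -0.21 to 0.39 on the 3-week arrays, and was highest on 3-week array 2. Of 23 mitochondrial fatty acid oxidation genes 3 were lower and 0 higher, with a median difference of -0.26 and 18 members negative.

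The leading members are Acot1, a cytosolic thioesterase that splits long-chain acyl-CoA, and Ehhadh, the bifunctional enzyme of peroxisomal beta-oxidation. Their start regions are shown because these genes had the smallest adjusted p-values of the PPAR alpha list. The sequences are RefSeq's (GRCm38.p6), 250 bases before to 50 after the annotated start, for Acot1 at chr12:84009252-84009551 on the plus strand and for Ehhadh at chr16:21787785-21788084 on the minus strand, each written 5′ to 3′ along the gene.
Acot1: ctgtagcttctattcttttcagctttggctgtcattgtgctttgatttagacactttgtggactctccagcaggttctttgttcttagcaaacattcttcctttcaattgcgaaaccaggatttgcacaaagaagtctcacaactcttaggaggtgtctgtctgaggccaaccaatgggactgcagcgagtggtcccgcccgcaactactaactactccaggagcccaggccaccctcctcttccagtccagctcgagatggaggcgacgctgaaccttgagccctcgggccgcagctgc
Ehhadh: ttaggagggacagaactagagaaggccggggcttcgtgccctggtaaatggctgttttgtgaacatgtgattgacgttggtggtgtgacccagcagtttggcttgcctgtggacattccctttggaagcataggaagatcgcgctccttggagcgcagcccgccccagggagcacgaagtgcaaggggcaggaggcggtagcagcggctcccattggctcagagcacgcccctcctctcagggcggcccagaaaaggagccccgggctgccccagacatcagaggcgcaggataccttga
They were searched on both strands for AGGTCA, the motif that PPAR alpha and its partner RXR bind as a repeat, and for 2 copies of it in a row with 1 base between them, which contains the single motif. A match would stand in capitals. Neither sequence held one, nor did those of Ech1, Acaa1a, Cpt2 and Ppara, the other list members past the threshold with a sequence in the table. Of all 32851 start regions of this length 16.3% held the single motif and 0.0396% the repeat. Only exact matches within these 300 bases were sought, so variant or more distant sites were not tested.

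Acot1 had ratios of -2.21, -1.83 and -1.04 (lowest, median, highest array) at 6 weeks, against -0.19, -0.08 and 0.17 at 3 weeks. Its mean was -1.77 ± 0.39 at 6 weeks and -0.05 ± 0.13 at 3 weeks (SD, n = 6 arrays each), a difference of -1.71 (SE 0.18, adjusted p = 2.44e-05). The effect was thus near 0 on all 3-week arrays and strongly negative on all 6-week arrays. Ehhadh had ratios of -1.58, -1.11 and -0.74 at 6 weeks and 0.01, 0.35 and 0.82 at 3 weeks, a difference of -1.5 (SE 0.21, adjusted p = 0.000883). All 6 arrays were negative at 6 weeks and all 6 positive at 3 weeks, although the 3-week mean of 0.39 had not passed (adjusted p = 0.151).

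Among the other enzymes of the list, Ech1, a dienoyl-CoA isomerase, had ratios of -0.93, -0.76 and -0.60 at 6 weeks against -0.54, 0.21 and 0.42 at 3 weeks, and differed by -0.82 (SE 0.16, adjusted p = 0.00975). Cpt2, the inner-membrane carnitine palmitoyltransferase, was lower in the knockout at both weeks, with means of -0.81 ± 0.16 at 6 weeks and -0.27 ± 0.29 at 3 weeks and a difference of -0.54 (SE 0.11, adjusted p = 0.0156). Acaa1a, the peroxisomal thiolase, averaged -0.23 ± 0.22 at 6 weeks and 0.44 ± 0.40 at 3 weeks, and differed by -0.66 (SE 0.14, adjusted p = 0.0129). The 6-week and 3-week arrays overlapped for Cpt2 and Acaa1a but not for Ech1. The last members, named here after their values were seen, were the omega-hydroxylase Cyp4a31 and the receptor Ppara. Cyp4a31 averaged -3.54 ± 0.79 at 6 weeks and -1.48 ± 1.35 at 3 weeks (difference -2.06, SE 0.49, adjusted p = 0.033), and its 3-week arrays 1 and 2, at -0.37 and 0.64, were the highest of the 12. Ppara averaged -0.55 ± 0.20 at 6 weeks and 0.05 ± 0.30 at 3 weeks (difference -0.59, SE 0.14, adjusted p = 0.0267).

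In the mitochondrial list Bdh1, which makes the ketone body beta-hydroxybutyrate, had ratios of -0.73, -0.35 and -0.13 at 6 weeks and 0.03, 1.0 and 1.5 at 3 weeks, a difference of -1.28 (SE 0.21, adjusted p = 0.00297). Its rise in the knockout had passed at 3 weeks (adjusted p = 0.000325), and at 6 weeks the negative mean did not (adjusted p = 0.0709). Decr1, a dienoyl-CoA reductase, averaged -0.71 ± 0.14 at 6 weeks and -0.03 ± 0.38 at 3 weeks, with a difference of -0.68 (SE 0.13, adjusted p = 0.0094). Eci1, an enoyl-CoA isomerase, averaged -0.59 ± 0.16 at 6 weeks and 0.10 ± 0.23 at 3 weeks, with a difference of -0.69 (SE 0.15, adjusted p = 0.0193) that no longer passed without 3-week array 4 or 6 or 6-week array 5 (adjusted p = 0.0569, 0.0515 and 0.0544). Hadh, Crat and Hadhb, which were picked out after their values were seen, had differences of -0.84 (SE 0.22), -0.69 (SE 0.18) and -0.65 (SE 0.17) and did not pass.

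**Figure D2:**
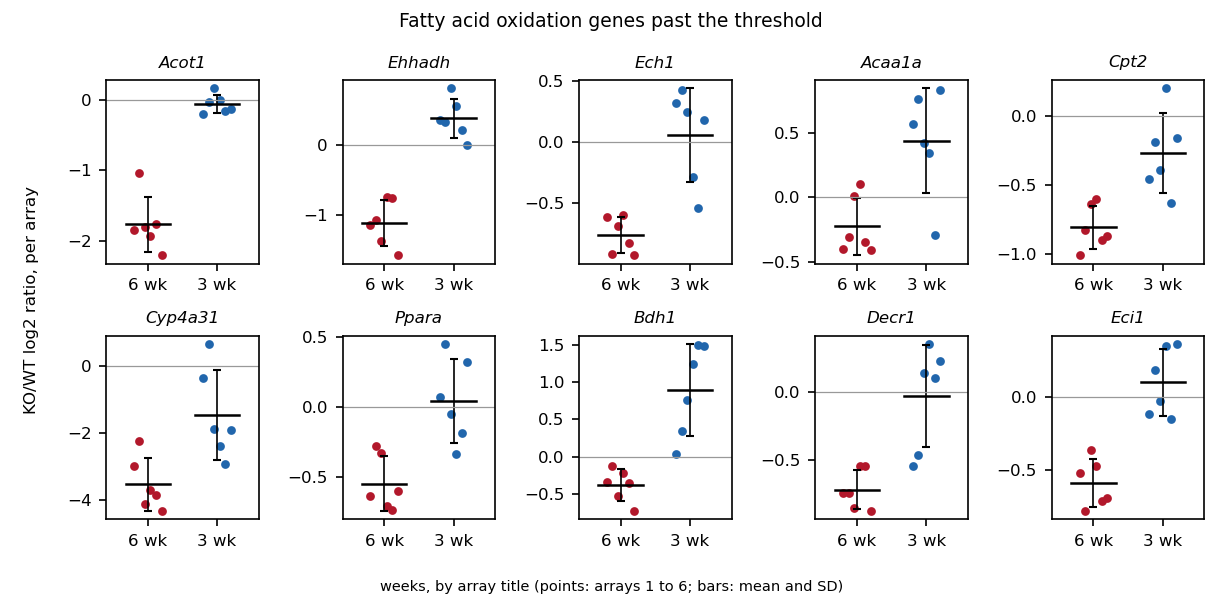
Log2 ratio of knockout over wild type on each array for the 7 PPAR alpha list members and 3 mitochondrial genes past the threshold, with 6 weeks left and 3 weeks right in every panel; bars give the mean and SD of 6 arrays, and vertical scales differ between panels. All 6-week points of Acot1, Ehhadh, Ech1, Bdh1 and Eci1 lie below all 3-week points.

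The 7 lower PPAR alpha targets became 4 when only the 12 arrays were fitted, 3 with the most similar opposite-dye pair averaged and 3 without 3-week arrays 1 and 2, where 2 members were then higher. Leaving out single arrays gave 5 to 8, and gave 2 to 5 for the 3 mitochondrial genes, with 5 without 3-week array 5 and without 6-week array 2. Acot1, Ehhadh, Bdh1 and Decr1 kept their call under all 24 alternatives. As values to set beside these, the 40 measured hepatocyte marker genes had a median difference of 0.14 with 2 higher and 0 lower. Without 3-week array 2 there were 1 higher and 2 lower, and without 3-week arrays 1 and 2 there were 4 higher and 2 lower. The 67 respiratory chain genes had a median difference of 0.01 with 0 past the threshold.

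Carboxylesterases and other phase I enzymes, which hydrolyse or oxidise lipids and drugs, also counted several lower effects at 6 weeks. Of 30 such genes 6 were lower (20.0%, beside 0.604% of all items) and 0 higher, and the list's median difference was -0.10. Leaving out single arrays gave 5 to 7 lower. The higher count became 1 without 3-week array 1 and 2 without 3-week array 2. Without both of these arrays it was also 2. Ces1e had ratios of -2.57, -2.04 and -1.84 at 6 weeks against -1.11, -0.33 and 0.84 at 3 weeks, with a difference of -1.92 (SE 0.36, adjusted p = 0.0078). Ces1f had ratios of -2.05, -1.57 and -1.25 at 6 weeks against -0.27, 0.00 and 0.47 at 3 weeks, with a difference of -1.65 (SE 0.28, adjusted p = 0.00347). For both the groups of arrays were apart. Their means stayed low afterwards, at -1.83 and -1.69 for Ces1e and -1.42 and -1.76 for Ces1f at 9 and 20 weeks. Ephx2, the soluble epoxide hydrolase, named after its values were seen, averaged -0.58 ± 0.09 at 6 weeks and 0.09 ± 0.34 at 3 weeks (difference -0.66, SE 0.14, adjusted p = 0.0189). Carboxylesterases of these families, like the Cyp2a, Cyp2c, Cyp4a, Hsd3b, amylase, Orm, Gstt and Aldh1a genes below and above, have close relatives whose transcripts a probe can also bind, so the identity of single members is uncertain.

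The retinaldehyde dehydrogenase Aldh1a1 and its relative Aldh1a7 reached the same list through their 3-week values. Aldh1a1 had ratios of -0.58, -0.44 and -0.07 at 6 weeks, against 0.21, 1.61 and 3.41 at 3 weeks, a difference of -2.16 (SE 0.37, adjusted p = 0.00347). Every 3-week array was positive, most of all arrays 4 and 5, and every 6-week array was negative. Aldh1a7 differed by -1.43 (SE 0.31, adjusted p = 0.0173), likewise with its highest values on 3-week arrays 4 and 5 (2.29 and 2.38), and did not pass without 6-week array 3 (adjusted p = 0.0514). With only the 12 arrays fitted neither passed (adjusted p = 0.0532 and 0.133).

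The drug-metabolising cytochromes P450 went both ways, with 3 of 29 higher and 3 lower (20.7% in all, beside 1.30% of all items). Their median difference was -0.19. Cyp2c55 had ratios of -0.01, 0.09 and 0.47 at 6 weeks, against 0.61, 1.07 and 1.54 at 3 weeks, so a rise in the knockout at 3 weeks was near 0 at 6 weeks (difference -0.95, SE 0.13, adjusted p = 0.000883). Cyp2j6, an arachidonic acid epoxygenase, had 0.36, 0.38 and 0.58 at 6 weeks against -0.35, -0.06 and 0.08 at 3 weeks (difference 0.52, SE 0.10, adjusted p = 0.00894). Cyp26a1, which clears retinoic acid, averaged -1.06 ± 0.45 at 6 weeks and 0.06 ± 0.04 at 3 weeks, a difference of -1.12 (SE 0.25, adjusted p = 0.0227) that ended without 6-week array 3, 4 or 5 (adjusted p = 0.0514, 0.0726 and 0.0745). Cyp2c38 was lower in the knockout at both weeks, with means of -2.68 ± 0.74 at 6 weeks and -0.91 ± 1.04 at 3 weeks (difference -1.77, SE 0.37, adjusted p = 0.0144). Its call ended when only the 12 arrays were fitted and when the dye term was left out. It also ended with the arrays scaled to a common spread and with the most similar opposite-dye pair averaged. The lower count became 5 without 3-week array 6, and both counts became 1 with the most similar opposite-dye pair averaged.

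Phase II and antioxidant enzymes, which conjugate bile acids, steroids and drugs, had 1 higher and 4 lower effects among 48 (10.4%, beside 1.30% of all items). The list's median difference was -0.06. Inmt, a methyltransferase of small amines, had ratios of -2.62, -2.08 and -1.41 at 6 weeks against -0.24, -0.14 and 1.06 at 3 weeks, and differed by -2.14 (SE 0.48, adjusted p = 0.0248). The call ended without 3-week array 4, the highest of its group (adjusted p = 0.0708), and without 6-week array 3, 5 or 6 (adjusted p = 0.0569, 0.0502 and 0.0558). The glutathione transferases Gstt2 and Gstt1 averaged -0.91 ± 0.31 and -0.80 ± 0.34 at 6 weeks, against 0.22 ± 0.64 and -0.05 ± 0.37 at 3 weeks, and both differences passed (adjusted p = 0.0144 and 0.0169). Gstt2 did not pass with only the 12 arrays fitted, with the most similar opposite-dye pair averaged or without 3-week arrays 1 and 2 (adjusted p = 0.0811, 0.0653 and 0.0805). Gclc, the catalytic subunit that starts glutathione synthesis, was past the threshold and higher in the knockout at 3 weeks but not at 6 weeks, with means of -0.27 ± 0.34 at 6 weeks and 1.0 ± 0.73 at 3 weeks (difference -1.27, SE 0.27, adjusted p = 0.0173). Ugt2a3, a glucuronosyltransferase, was the higher one, with -0.34, -0.18 and -0.10 at 6 weeks against -1.5, -1.0 and -0.46 at 3 weeks (difference 0.76, SE 0.12, adjusted p = 0.00249). The lower count was 1 without 3-week array 4, 7 without 3-week array 6 and 2 without 6-week array 5. The higher count was 4 in place of 1 without 3-week arrays 1 and 2. Gstt1 lost its call without 3-week array 4 or 6-week array 5 (adjusted p = 0.0517 and 0.0501), and Gclc without 3-week array 3, 4 or 5 (adjusted p = 0.0542, 0.0523 and 0.0513).

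The largest effects that were present at 6 weeks and near 0 at 3 weeks on the higher side belonged to genes outside the metabolic lists. Cib3, of the calcium and integrin binding family, had ratios of 1.64, 2.53 and 3.06 at 6 weeks and -0.09, 0.01 and 0.19 at 3 weeks. Its difference was 2.43 (SE 0.32, adjusted p = 0.000495). Every 6-week array showed a strong rise and no 3-week array moved far from 0. Sdr16c5, a retinol dehydrogenase, had 0.85, 1.89 and 3.36 at 6 weeks against -0.10, -0.04 and 0.10 at 3 weeks (difference 1.93, SE 0.32, adjusted p = 0.00297). Gvin1, a very large interferon-inducible GTPase, had 0.89, 1.98 and 2.48 at 6 weeks against -0.04, 0.10 and 0.37 at 3 weeks (difference 1.70, SE 0.23, adjusted p = 0.000652). For all 3 genes the 6-week and 3-week arrays were apart, and all 3 kept their call under every alternative. In Sdr16c5 and Gvin1 the lowest 6-week values were those of arrays 1 and 2.

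C6, a component of the complement membrane attack complex, had ratios of 0.68, 1.93 and 2.30 at 6 weeks, against -0.11, 0.09 and 0.23 at 3 weeks, a difference of 1.59 (SE 0.22, adjusted p = 0.000883). Over 3, 6, 9 and 20 weeks its means were 0.08, 1.67, 0.32 and 0.56, highest at 6 weeks. Ntrk2, the receptor of brain-derived neurotrophic factor, differed by 1.02 (SE 0.11, adjusted p = 2.44e-05) as the mean of 2 features, which by themselves differed by 0.06 and 1.98. The transcription factor Jun and the LIM protein Ajuba had means of 1.45 ± 0.55 and 1.39 ± 0.60 at 6 weeks, against 0.37 ± 0.18 and 0.31 ± 0.16 at 3 weeks. Their differences of 1.08 and 1.09 passed (adjusted p = 0.0272 and 0.0183), but the call of Jun ended without any of 3-week arrays 3, 4 and 5 and 6-week arrays 3, 4 and 5 (adjusted p = 0.0534 to 0.0854), and that of Ajuba without 3-week array 3 or 6-week array 3 or 5 (adjusted p = 0.0536 to 0.0552). Cav2, a caveolin picked out after its values were seen, averaged 1.07 ± 0.36 at 6 weeks and 0.07 ± 0.06 at 3 weeks (difference 1.00, SE 0.17, adjusted p = 0.00417).

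On the lower side Olfr711, annotated as an olfactory receptor, had ratios of -1.40, -1.25 and -0.95 at 6 weeks and -0.70, -0.05 and 0.23 at 3 weeks (difference -1.10, SE 0.17, adjusted p = 0.00207). Zap70, a tyrosine kinase of T cell receptor signalling, had -0.90, -0.67 and -0.37 at 6 weeks against -0.11, -0.04 and 0.03 at 3 weeks (difference -0.61, SE 0.10, adjusted p = 0.00254). Hsd3b5, a steroid dehydrogenase of adult male liver, had -3.45, -1.79 and -0.90 at 6 weeks against -0.59, -0.04 and 0.04 at 3 weeks (difference -1.88, SE 0.37, adjusted p = 0.00983). Its lowest 6-week values came from arrays 1 and 2 (-3.44 and -3.45). The call of Hsd3b5 ended with only the 12 arrays fitted and with the most similar opposite-dye pair averaged.

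**Figure D3:**
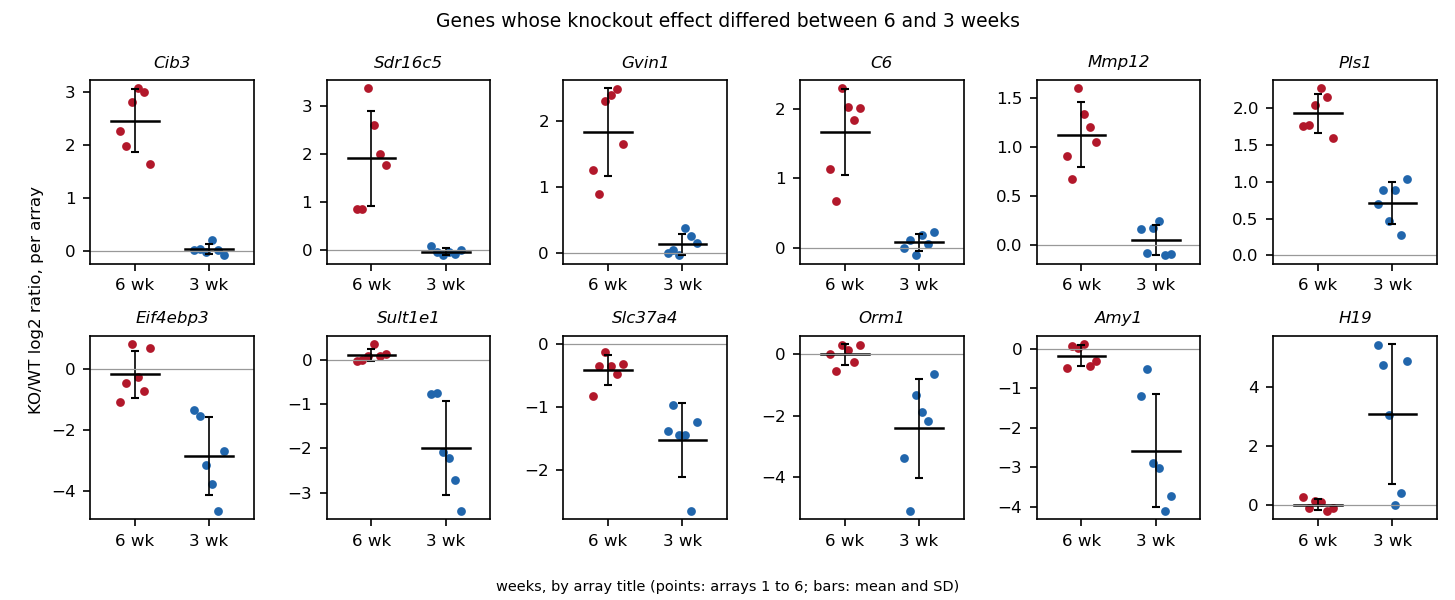
Log2 ratio of knockout over wild type on each array for 12 genes past the threshold, 6 weeks left and 3 weeks right in every panel, with bars for the mean and SD of 6 arrays and vertical scales that differ between panels. The upper row shows genes whose 6-week values are the farther from 0, such as Cib3 (means of 2.45 at 6 weeks and 0.02 at 3 weeks); the lower row shows genes whose 3-week values are, such as Eif4ebp3 (-0.17 and -2.84).

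A further set had its larger effect at 3 weeks and lay nearer 0 at 6 weeks. Eif4ebp3, of the family that holds back translation initiation, had ratios of -1.07, -0.36 and 0.82 at 6 weeks against -4.64, -2.91 and -1.32 at 3 weeks, with a difference of 2.67 (SE 0.53, adjusted p = 0.0101). Sult1e1, the estrogen sulfotransferase, had -0.03, 0.09 and 0.36 at 6 weeks against -3.42, -2.15 and -0.75 at 3 weeks, with a difference of 2.10 (SE 0.30, adjusted p = 0.000883). In both genes all 3-week arrays were below all 6-week arrays, with 3-week arrays 1 and 2 nearest to 0. Slc37a4, which carries glucose 6-phosphate into the endoplasmic reticulum for glucose release, was lower in the knockout at both weeks, with -0.83, -0.35 and -0.13 at 6 weeks against -2.65, -1.41 and -0.97 at 3 weeks (difference 1.11, SE 0.19, adjusted p = 0.00379). Ldha, lactate dehydrogenase, differed the other way (-1.01, SE 0.18, adjusted p = 0.00565), with means of -0.15 ± 0.19 at 6 weeks and 0.86 ± 0.49 at 3 weeks. Apoc3, an apolipoprotein that slows the clearance of triglyceride-rich particles, averaged -0.06 ± 0.41 at 6 weeks and -1.15 ± 0.53 at 3 weeks (difference 1.08, SE 0.19, adjusted p = 0.00471). These 5 genes kept their calls under every alternative.

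Acute phase proteins had 3 of 25 higher effects (12%, beside 0.695% of all items) and 0 lower, around a median difference of 0.00. All 3 were lower in the knockout at 3 weeks and near 0 at 6 weeks. The orosomucoid Orm1, a plasma carrier protein of the acute phase, had -0.55, 0.08 and 0.31 at 6 weeks against -5.10, -2.02 and -0.63 at 3 weeks (difference 2.41, SE 0.50, adjusted p = 0.0137). Its lowest values came from 3-week arrays 2 and 1 (-5.10 and -3.36). Orm2 differed by 2.07 (SE 0.47, adjusted p = 0.0272), and the protease inhibitor Serpina3n, with means of -0.18 ± 0.36 at 6 weeks and -1.45 ± 0.64 at 3 weeks, by 1.27 (SE 0.22, adjusted p = 0.00435). None of the 3 passed with only the 12 arrays fitted, where 1 other member did, and Orm2 also ended without any of 3-week arrays 1, 4 and 5 and 6-week arrays 1, 3, 5 and 6 (adjusted p = 0.0537 to 0.0622).

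Amylases, the starch-splitting enzymes of which Amy1 is also made in liver, were the pancreas list's only calls. They were 2 of 21 (9.52%, beside 1.30% of all items). Amy1 had ratios of -0.48, -0.14 and 0.12 at 6 weeks against -4.11, -2.95 and -0.52 at 3 weeks (difference 2.41, SE 0.41, adjusted p = 0.00347). Amy2a5, the pancreatic form, had -0.47, -0.24 and -0.21 at 6 weeks against -4.15, -2.82 and -0.76 at 3 weeks (difference 2.23, SE 0.41, adjusted p = 0.00565). Both were low on 3-week arrays 3 to 6 (-2.28 or below) and nearer 0 on arrays 1 and 2, whereas the other pancreas genes were low on 3-week array 6 alone. Neither amylase passed with only the 12 arrays fitted (adjusted p = 0.0584 and 0.068), and both passed without any single array.

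H19, the imprinted fetal transcript that is shut down in the liver after birth, had the largest difference among named genes past the threshold, and its 3-week arrays were uneven. Its ratios were 0.27, -0.09, 0.12, 0.09, -0.21 and -0.11 on 6-week arrays 1 to 6, against 5.42, 4.73, 3.05, 0.00, 0.40 and 4.87 on 3-week arrays 1 to 6. At 3 weeks 4 arrays were thus high and 2 near 0, and the difference of -3.07 (SE 0.67, adjusted p = 0.0189) ended without 3-week array 6 or 6-week array 5 (adjusted p = 0.0514 and 0.0502). With only the 12 arrays fitted its adjusted p was 0.142, and without 3-week arrays 1 and 2 it was 0.0949. No other fetal liver gene passed, of 19 measured (5.26% with H19, beside 1.30% of all items).

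Among effects that passed at both weeks in the same direction, Clu was the largest that shrank. Clu, a secreted chaperone of stressed epithelium, had ratios of 0.85, 1.44 and 2.50 at 6 weeks against 2.53, 3.28 and 3.5 at 3 weeks (difference -1.6, SE 0.25, adjusted p = 0.00207). Pls1, an actin-bundling protein of microvilli, grew, with 1.59, 1.91 and 2.27 at 6 weeks against 0.28, 0.80 and 1.04 at 3 weeks (difference 1.22, SE 0.20, adjusted p = 0.00272). The 6-week and 3-week arrays were apart in both genes. Tff3, a trefoil peptide of mucus-secreting epithelium, had 2.16, 2.27 and 2.80 at 6 weeks against 0.98, 1.12 and 1.84 at 3 weeks (difference 1.15, SE 0.27, adjusted p = 0.033), but its call ended without any single array except 3-week array 2 and 6-week arrays 2 and 6 (adjusted p = 0.0592 to 0.0974). Prodh, which opens proline breakdown, was lower in the knockout at both weeks, averaging -0.55 ± 0.47 at 6 weeks and -1.54 ± 0.56 at 3 weeks (difference 0.99, SE 0.22, adjusted p = 0.0212). Its call ended without 3-week array 3 or 5 or 6-week array 3 or 6 (adjusted p = 0.0516 to 0.0608). Prodh was the only call among 31 urea cycle and amino acid enzymes (3.23%, beside 1.30% of all items), whose median difference was 0.15. Without 3-week arrays 1 and 2 that list had 6 higher and 1 lower. It had 0 higher with only the 12 arrays fitted, and 0 higher and 1 lower after quantile normalization.

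The effect turned round in 7 genes, which passed at 6 weeks in the opposite direction to 3 weeks, and all 7 also passed the difference. Serpina6, the plasma globulin that binds corticosterone, had ratios of -1.79, -1.0 and -0.51 at 6 weeks against 0.70, 1.46 and 2.07 at 3 weeks. The difference of -2.59 (SE 0.23) had the smallest adjusted p of the genes named here, 1.51e-06. Every array was negative at 6 weeks and every array positive at 3 weeks, and the mean was -0.15 at 9 weeks and 0.20 at 20 weeks. Usf1, a transcription factor of glucose-responsive genes, had -1.05, -0.57 and -0.23 at 6 weeks against 0.22, 0.87 and 1.37 at 3 weeks (difference -1.40, SE 0.18, adjusted p = 0.000353).

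Ces2a, a carboxylesterase, averaged -0.83 ± 0.14 at 6 weeks and 0.48 ± 0.61 at 3 weeks, with all 6 arrays negative at 6 weeks and 5 of 6 positive at 3 weeks (difference -1.31, SE 0.20, adjusted p = 0.00146). Tuba4a, an alpha-tubulin, averaged -0.39 ± 0.21 and 0.56 ± 0.38 at 6 and 3 weeks (difference -0.94, SE 0.16, adjusted p = 0.00379). Cyb5a, the electron donor cytochrome b5, averaged -0.45 ± 0.32 and 0.45 ± 0.36 (difference -0.90, SE 0.17, adjusted p = 0.00643). These 5 genes kept the call of the difference under every alternative. In the other direction Ramp2, a partner of the adrenomedullin receptor, averaged 0.18 ± 0.15 at 6 weeks and -0.23 ± 0.21 at 3 weeks (difference 0.40, SE 0.08, adjusted p = 0.00816). The arrays of Ramp2 overlapped, and its call ended with the most similar opposite-dye pair averaged (adjusted p = 0.0639). Car14, a membrane carbonic anhydrase, averaged 0.26 ± 0.16 at 6 weeks and -0.29 ± 0.11 at 3 weeks (difference 0.55, SE 0.12, adjusted p = 0.0227), and its call ended without 3-week array 3 or 6-week array 1, 3 or 6 (adjusted p = 0.0521 to 0.0597).

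**Figure D4:**
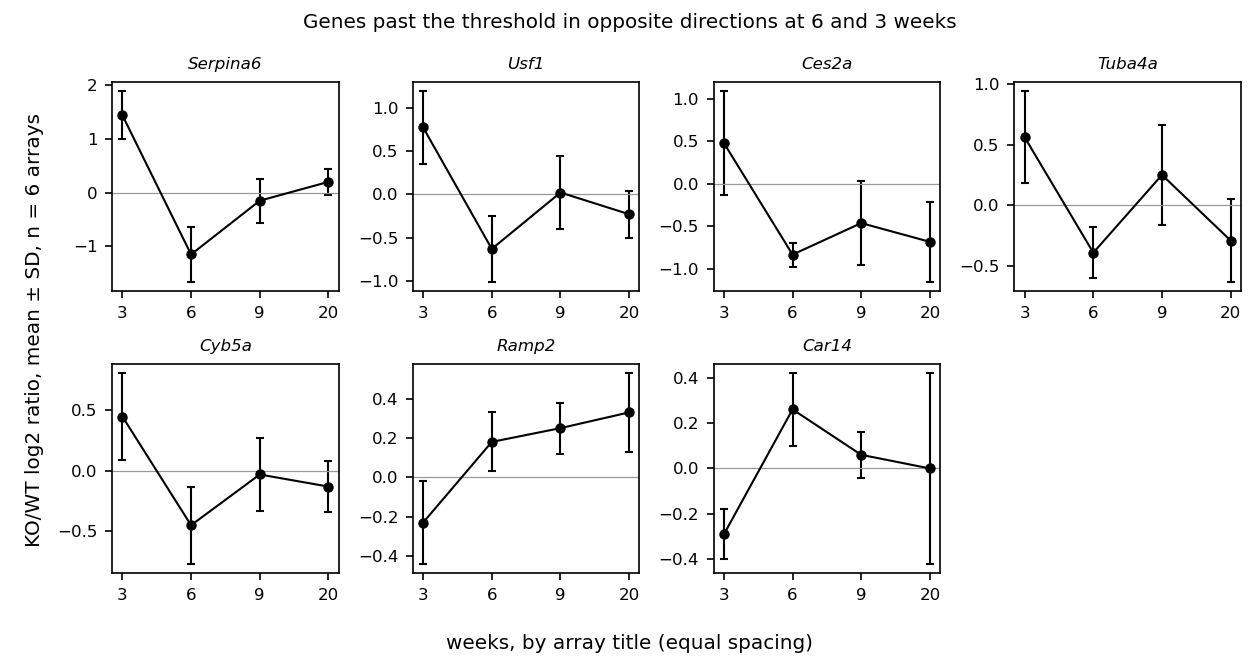
Mean log2 ratio of knockout over wild type ± SD (6 arrays a week) at 3, 6, 9 and 20 weeks, equally spaced, for the 7 genes that passed in opposite directions at 6 and 3 weeks. Serpina6, Usf1, Ces2a, Tuba4a and Cyb5a are above 0 at 3 weeks and below 0 at 6 weeks, and Ramp2 and Car14 the other way; at 20 weeks the mean of Serpina6 is 0.20 and that of Ces2a -0.68.

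In the lists of bile acid synthesis and of hepatobiliary transporters 3 genes passed. Cyp7a1, the rate-limiting enzyme of bile acid synthesis, had ratios of 0.38, 0.83 and 1.69 at 6 weeks against -1.41, -0.41 and -0.12 at 3 weeks (difference 1.42, SE 0.34, adjusted p = 0.0405). All arrays were positive at 6 weeks and negative at 3 weeks, but the call ended without any single array except 6-week arrays 1 and 2 (adjusted p = 0.0542 to 0.11). It was the only call among 23 genes of bile acid synthesis (4.35%, beside 1.30% of all items), whose median difference was -0.13. Of 27 hepatobiliary transporters 2 passed (7.41%): the ileal-type bile acid transporter Slc10a2 was higher (0.56, SE 0.14, adjusted p = 0.0472) and the peroxisomal transporter Abcd2 lower (-0.46, SE 0.11, adjusted p = 0.0445). Leaving out 11 of the 12 arrays in turn, all but 6-week array 2, ended the call of Slc10a2 (adjusted p = 0.0513 to 0.136), and 9 of them ended that of Abcd2, the exceptions being 3-week array 6 and 6-week arrays 1 and 2 (adjusted p = 0.0518 to 0.121). Fabp2, the intestinal-type fatty acid binding protein, differed by -1.33 (SE 0.30, adjusted p = 0.0227), which ended without 3-week array 4 or 6 or 6-week array 3 or 6 (adjusted p = 0.0525 to 0.0572). Apoa5, an apolipoprotein of triglyceride handling, differed by 0.90 (SE 0.22, adjusted p = 0.0459), which ended without any single array except 3-week array 1 and 6-week array 6 (adjusted p = 0.0533 to 0.119).

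Genes higher in female than in male mouse liver had 4 of 26 higher effects (15.4%, beside 0.695% of all items) and 0 lower. The list's median difference was 0.23. The 4 genes were Sult1e1 and Ntrk2, described above, and 2 cytochromes P450. Cyp2a4, a testosterone hydroxylase, had -2.09, -0.37 and -0.03 at 6 weeks against -4.11, -2.91 and -1.39 at 3 weeks (difference 1.99, SE 0.42, adjusted p = 0.0151). Cyp2c40, a hydroxylase of arachidonic acid, averaged -0.38 ± 0.32 at 6 weeks and -2.09 ± 1.36 at 3 weeks (difference 1.72, SE 0.40, adjusted p = 0.033). Neither passed with only the 12 arrays fitted (adjusted p = 0.0924 and 0.155) or with the most similar opposite-dye pair averaged. Cyp2a4 also did not pass after quantile normalization. The call of Cyp2c40 ended without any of 3-week arrays 1, 2 and 3 and 6-week arrays 1, 3, 4, 5 and 6 (adjusted p = 0.0577 to 0.0894). Of 21 male-biased genes C6 was higher and Hsd3b5 lower (9.52% in all, beside 1.30% of all items). Of 20 genes of the growth hormone and IGF axis none passed. Igfbp1, a hepatic binding protein of insulin-like growth factors, had the largest difference among them, 2.20 (SE 0.80, adjusted p = 0.206), with 3-week ratios of 3.13, 2.60, 0.62, -2.43, -2.77 and -1.05 on arrays 1 to 6.

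**Figure D5:**
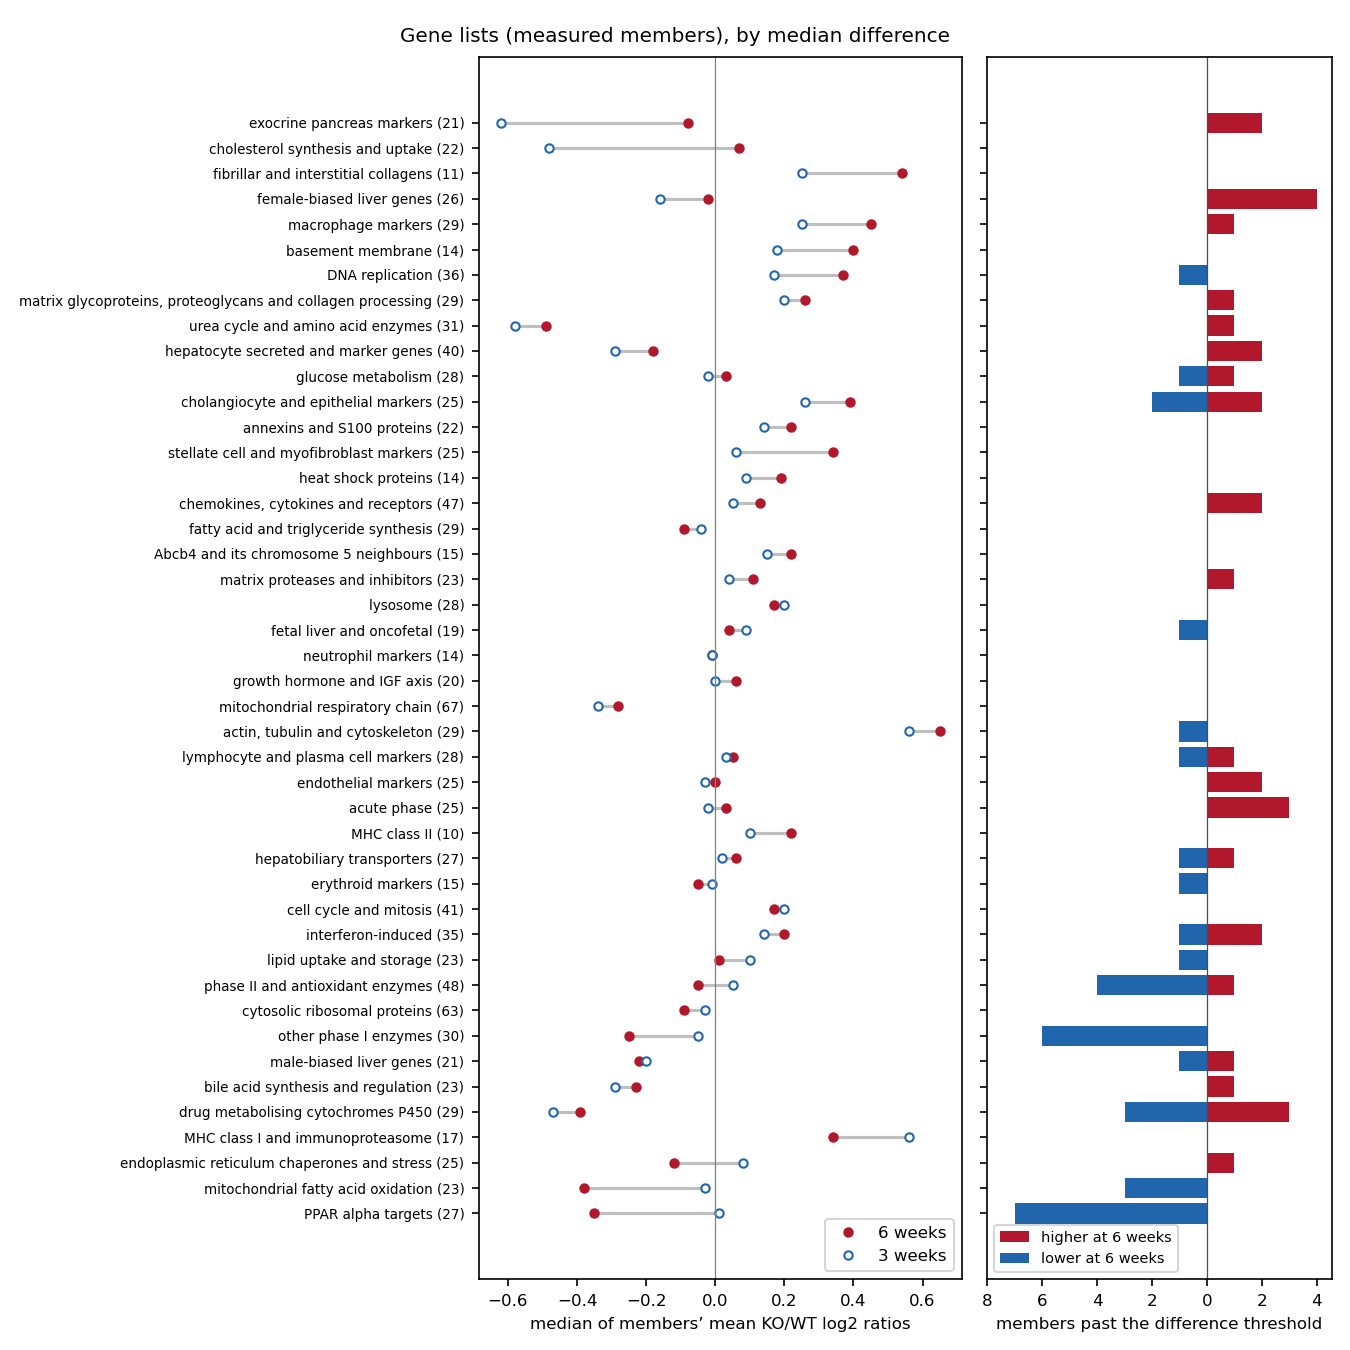
Left, the median over each list's measured members of their mean log2 ratio of knockout over wild type, filled points for 6 weeks and open points for 3 weeks; right, the number of members past the threshold of the difference, higher at 6 weeks to the right of 0 and lower to the left. Lists run from the highest median difference at the top to the lowest at the bottom, where the PPAR alpha targets stand with 7 lower members.

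Matrix, inflammatory and other cell marker lists held between 0 and 4 calls each. In bulk liver a change in the number of cells of a type and a change in RNA per cell cannot be told apart. Of 11 fibrillar and interstitial collagens none passed the difference, although 10 were past the threshold and higher in the knockout at 6 weeks (10.8% of all items), against 5 at 3 weeks (3.64%). Their median difference was 0.24 and 9 of 11 were positive; Col3a1, picked out as the largest, averaged 1.93 ± 0.57 at 6 weeks and 1.38 ± 0.51 at 3 weeks, a difference of 0.56 (SE 0.25, adjusted p = 0.34). None of 14 basement membrane genes passed (Sparc 0.67, SE 0.18, adjusted p = 0.0683), and none of 25 stellate cell and myofibroblast markers did, with 20 positive and a median of 0.09 (Pdgfrb 0.65, SE 0.21, adjusted p = 0.135). Lum, the collagen-binding proteoglycan lumican, averaged 1.45 ± 0.50 at 6 weeks and 0.42 ± 0.35 at 3 weeks (difference 1.03, SE 0.25, adjusted p = 0.0398), and its call ended without any single array except 3-week array 2 and 6-week array 2 (adjusted p = 0.0598 to 0.117).

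Mmp12, the macrophage elastase, had ratios of 0.67, 1.12 and 1.6 at 6 weeks against -0.10, 0.04 and 0.24 at 3 weeks (difference 1.08, SE 0.21, adjusted p = 0.0094). Lyz2, the lysozyme of macrophages, was higher in the knockout at both weeks, with 1.56, 1.96 and 2.35 at 6 weeks against 0.39, 1.08 and 1.64 at 3 weeks (difference 0.93, SE 0.19, adjusted p = 0.0144). The arrays were apart for Mmp12 and overlapped for Lyz2. Of 29 macrophage markers Lyz2 alone passed (3.45%, beside 1.30% of all items), while 26 had a positive difference. The list's median lay between 0.20 and 0.71 on the 6-week arrays, against 0.07 to 0.44 on the 3-week arrays. The chemokine Ccl6 had 0.62, 0.87 and 1.38 at 6 weeks against -0.22, 0.11 and 0.52 at 3 weeks (difference 0.78, SE 0.16, adjusted p = 0.0147), and Ccl7 differed by 0.31 (SE 0.06, adjusted p = 0.014). These were the 2 calls among 47 chemokines, cytokines and receptors (4.26%, beside 1.30% of all items). Klrd1, a receptor chain of natural killer cells, had 0.63, 1.18 and 1.85 at 6 weeks against 0.02, 0.21 and 0.55 at 3 weeks (difference 0.94, SE 0.18, adjusted p = 0.0094). Of 28 lymphocyte and plasma cell markers Klrd1 and Zap70 were the calls (7.14%, beside 1.30% of all items). Mmp12, Lyz2, Ccl6, Ccl7 and Klrd1 all lost their calls when the most similar opposite-dye pair was averaged (adjusted p = 0.0639, 0.103, 0.0639, 0.106 and 0.0793), and Lyz2 and Ccl7 also without 3-week arrays 1 and 2 (adjusted p = 0.0558 and 0.0549).

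Interferon-induced genes had 2 higher and 1 lower among 35 (8.57%, beside 1.30% of all items), with a median difference of -0.02. Gvin1, described above, was not a member of this list. Ifi27l2b was strongly higher in the knockout at both weeks, averaging 3.36 ± 0.43 at 6 weeks and 2.23 ± 0.51 at 3 weeks (difference 1.13, SE 0.26, adjusted p = 0.0252). Its call ended without any of 3-week arrays 1, 3, 4 and 5 and 6-week arrays 1, 3 and 5 (adjusted p = 0.0525 to 0.0768), and scaling the arrays to a common spread gave 0.49 (adjusted p = 0.501). Oasl1 differed by 0.54 (SE 0.10, adjusted p = 0.00742), which ended with the most similar opposite-dye pair averaged (adjusted p = 0.0539). Rsad2, the antiviral enzyme viperin, differed by -0.24 (SE 0.06, adjusted p = 0.0336), which ended without any single array except 3-week arrays 1 and 2 and 6-week array 5 (adjusted p = 0.0521 to 0.0943). None of 10 MHC class II genes and none of 17 MHC class I and immunoproteasome genes passed; Cd74, the class II chaperone, averaged 1.21 ± 0.54 at 6 weeks and 2.13 ± 0.67 at 3 weeks (difference -0.93, SE 0.31, adjusted p = 0.16).

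Cholangiocyte and epithelial markers had Tff3 and Krt7 higher and Clu and Krt20 lower, 4 of 25 (16%, beside 1.30% of all items). The list's median difference was 0.10. The duct keratin Krt7 had 0.19, 0.33 and 0.61 at 6 weeks against -0.13, -0.07 and 0.03 at 3 weeks (difference 0.45, SE 0.10, adjusted p = 0.0287), which ended without any of 3-week arrays 3, 4 and 6 and 6-week arrays 3, 4 and 5 (adjusted p = 0.0526 to 0.0804). Krt20 averaged -0.05 ± 0.12 at 6 weeks and 0.31 ± 0.18 at 3 weeks (difference -0.36, SE 0.08, adjusted p = 0.0156), which ended with only the 12 arrays fitted (adjusted p = 0.083). Without 3-week array 3 or 4 or 6-week array 3, 4 or 5 the list had 0 higher members. Of 25 endothelial markers Ramp2 and Cd34 were higher (8.0%, beside 0.695% of all items). Cd34 differed by 0.52 (SE 0.13, adjusted p = 0.0442), which ended without any single array except 3-week array 2 (adjusted p = 0.0543 to 0.12). Car1, the erythroid carbonic anhydrase, had -1.0, -0.74 and -0.47 at 6 weeks against -0.42, -0.08 and 0.02 at 3 weeks (difference -0.62, SE 0.13, adjusted p = 0.0134). It was the only call among 15 erythroid markers (6.67%, beside 1.30% of all items). Car1 lost its call when the most similar opposite-dye pair was averaged (adjusted p = 0.0787).

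DNA replication genes had 30 of 36 positive differences and a median of 0.20. The single call (2.78%, beside 1.30% of all items), Mcm10, was lower (-1.08, SE 0.23, adjusted p = 0.0186). Mcm10, a replication initiation factor, averaged -1.44 ± 0.46 at 6 weeks and -0.36 ± 0.60 at 3 weeks, and its call ended without 3-week array 4 or 5 or 6-week array 4 or 5 (adjusted p = 0.0501 to 0.0568). Without 6-week array 2, 3 members of the list were higher. Of 22 cholesterol synthesis and uptake genes 21 had a positive difference, with a median of 0.37, and none passed; Dhcr7, the last enzyme of the pathway, averaged 0.29 ± 0.25 at 6 weeks and -0.61 ± 0.95 at 3 weeks (difference 0.90, SE 0.25, adjusted p = 0.087), with -1.79 and -1.82 on 3-week arrays 1 and 2. No member passed among 41 cell cycle genes, 28 lysosomal genes, 22 annexins and S100 proteins, 14 neutrophil markers, 29 genes of fatty acid and triglyceride synthesis, 14 heat shock proteins, 63 cytosolic ribosomal proteins and 67 respiratory chain genes. Their median differences lay between -0.06 and 0.10.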

How the data were processed

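The authors' deposited values are ratios of the 2 dyes, 1 per feature and array for 22575 features, and were read as log2 because the labels do not give the base. How the authors corrected background, normalized or filtered them before deposit was not stated in the labels. Intensities were not used, so dim features were not told apart from bright ones, and 6 arrays a week bound the precision. Features were named through the platform annotation by an array layout settled from the data: among 48 accessions spotted 10 or more times, 31 had copies with a median r above 0.5, against 0 in the direct join. The sign was turned for arrays whose Cy5 channel held wild type RNA, which takes the ratios as Cy5 over Cy3. Each array was centred on its median, and features of a gene were averaged. limma 3.58.1 in R 4.3.3 fitted all 24 arrays with 1 mean per week and 1 dye term; the contrast was 6 minus 3 weeks, and the script was tested on simulated data. There were 24 alternatives, 12 of which leave out 1 array.

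The comparison, the gene lists and the tests were chosen with earlier results of these data known. Named were Abcb4, the 15 largest differences each way among genes whose arrays did not overlap, up to 5 called members per list (the 2 with the smallest p where none passed), and up to 10 genes that turned or moved nearer 0; 106 genes met this, 74 of them past the threshold. Clones and predicted genes were counted only.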

Additional observations from a re-analysis of the deposited data

Results flagged for a closer look

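The knockout effect differed between 6 and 3 weeks, by the test of the difference itself, for 271 items and for 74 of the genes the naming rule allows. Opposite directions at the 2 weeks were found for Serpina6 (-2.59), Usf1 (-1.40), Ces2a (-1.31), Tuba4a (-0.94), Cyb5a (-0.90), Car14 (0.55) and Ramp2 (0.40), as differences of 6 minus 3 weeks on the log2 scale.

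Single arrays lay far from the other 5 of their week in 7 of 212 gene and week groups, by Dixon's test, where chance gives about 1 in 20. The ratio of knockout over wild type that stood apart was -0.47 for Amy2a5 and 0.04 for S100a8 at 6 weeks. At 3 weeks it was 1.84 for Tff3, -2.65 for Slc37a4, 0.61 for Ajuba, 1.06 for Inmt and -0.53 for Abcd2. The call of the difference ended without that array for Inmt (adjusted p = 0.0708), while those of Amy2a5, Tff3, Slc37a4, Ajuba and Abcd2 did not, and S100a8 had not passed.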

How the results depend on the processing

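No item past the threshold changed direction under any of the 24 alternatives, and 76 of the 271 passed under all of them, 28 of these among the 74 genes of the naming rule. The count for the knockout effect, 6 weeks minus 3 weeks, of 271 (145 higher and 126 lower) became 103 (47 and 56) with the most similar opposite-dye pair averaged and 439 (233 and 206) without 3-week arrays 1 and 2; the first has fewer arrays, and the cause of the second was not tested. Leaving out 1 array gave 165 to 344 items, with 87 to 199 higher at 6 weeks and 75 to 154 lower at 6 weeks. The other settings gave 196 (no dye term) to 343 (array weights), and the share of higher items ran between 45.6 and 58.2% around 53.5%. In the main fit the spread of each item came from all weeks, so the 9- and 20-week arrays helped to set it. The weeks could differ in spread, as for H19 with an SD of 2.37 at 3 weeks and 0.18 at 6 weeks. Fitting only the 12 arrays of 3 and 6 weeks gave 243 items, and 170 of these were among the 271. With a common spread the knockout effect at 3 weeks was past the threshold for 2466 items in place of 1542. Whether the sample numbers pair the weeks could not be decided. Same-numbered arrays correlated at r = -0.5 to 0.4 in their deviations, 2 of 6 above 0.1, and 1 of 6 was closest to its own number. The dye effect was not taken out of these deviations, and numbers 2 and 6 differ in dye orientation between the weeks. With the number as a replicate block 282 items passed, 236 of them among the 271.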
